A study of Macaca mulatta with 8 samples.

Results

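The genes described here encode the chains of 3 protein families that hold cells to their surroundings: integrins, laminins and collagens. They were chosen by name alone, as the protein-coding genes of the NCBI Mmul_10 annotation whose symbol is ITGA or ITGB with a number, LAMA, LAMB or LAMC with a number, or COL with a number, A and a number. This gave 74 of 21122 protein-coding genes: 12 integrin alpha, 8 integrin beta, 12 laminin and 42 collagen genes. Symbols that only begin this way but name other proteins, such as ITGB1BP1 and COL4A3BP, were left out.

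Open chromatin had been mapped by ATAC-seq (transposase Tn5 inserts adapters where DNA is accessible) in cortex cells of the rhesus macaque at post-conceptional days 50, 60, 80 and 85 (E50, E60, E80 and E85). Frozen tissue was dissociated, and the cells were grown on a laminin-coated surface in a medium with FGF2, EGF and BDNF that enriches progenitors. No genotype or treatment separated the groups: all 4 were grown alike, and each was 1 culture with 2 technical libraries, 8 in all. Every result counts merged regions, the intervals of rheMac10 into which the authors joined peaks. A region counted as called at a stage when it held at least 1 peak of that stage. A locus was the gene body and the 5 kb upstream of it.

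Integrins are receptors of an alpha and a beta chain that bind matrix outside the cell and connect to actin through talin and kindlin. Laminins are trimers of an alpha, a beta and a gamma chain that, with type IV collagen, build basement membranes. In the developing cortex the basement membrane under the meninges anchors the endfeet of radial glia, and integrin beta 1 and laminins are known for their part in that attachment. Collagens are triple helices and range from the fibrils of connective tissue to basement membrane sheets and chains that span the cell membrane.

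Several sequences carry the findings. COL4A1 and COL4A2, the main chains of type IV collagen, start back to back on chromosome 17. Their annotated starts, at 91748807 and 91748923, are separated by 115 bases, chr17:91748808-91748922 (rheMac10, plus strand), all inside 1 called region of 2720 bp. It is shown because every promoter call of both genes rested on this region. Capitals mark a CCAAT box (CCAAT) and a GC box (GGGCGG), searched on both strands.
COL4A1 and COL4A2: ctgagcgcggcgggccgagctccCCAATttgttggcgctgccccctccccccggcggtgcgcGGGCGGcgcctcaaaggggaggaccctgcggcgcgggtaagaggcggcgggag
The stretch was 77.4% G and C and held 16 CpG. Of 21113 protein-coding genes, 34.3% had a GC box and 19.1% a CCAAT box in the 115 bases upstream of the outermost start.

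Another set shows intronic regions that differed between stages. Loci with an excess of 3 or more E80-specific regions, described below, numbered 9, and for 5 of them an intronic E80-specific region with AP-1 letters is shown, with 12 bases on each side. Where several could be shown, the region nearest the start was taken. Capitals mark TGACTCA, the core bound by FOS and JUN dimers, written in that direction. The bases lie at chr2:151432286-151432316 (plus strand) for ITGB5, chr15:3465966-3465996 (minus) for COL5A1, chr4:102892516-102892546 (plus) for COL19A1, chr15:43949915-43949945 (minus) for COL15A1 and chr2:176456182-176456212 (minus) for COL8A1.
ITGB5: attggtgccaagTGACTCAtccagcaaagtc
COL5A1: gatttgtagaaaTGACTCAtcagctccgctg
COL19A1: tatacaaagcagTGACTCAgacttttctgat
COL15A1: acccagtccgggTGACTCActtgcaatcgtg
COL8A1: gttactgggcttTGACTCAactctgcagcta
All 5 regions were called at E80 alone. Of the loci not shown, COL4A1 and COL5A2 had no E80-specific region with AP-1 letters within 150 bp of its centre. In ITGA3 the only such region lay upstream, not in an intron. ITGB5 and COL8A1 also each had a region called at E60 alone with AP-1 letters in that window. For 2 of the 4 loci with an excess on the E60 side, COL23A1 (chr6:175827407-175827436, plus strand) and COL26A1 (chr3:43578025-43578054, plus strand), the SOX letters ACAAAG of an intronic region called at E60 alone are shown in capitals, also with 12 bases on each side. COL16A1 and LAMA1 also had such a region with SOX letters within 150 bp of its centre, which is not shown.
COL23A1: gataaacctgagACAAAGctcttatttggc
COL26A1: cccaggggggctACAAAGctgagtcttggc

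A further set shows the middle 200 bases of wide intronic regions of 3 call patterns: the widest whose window held a searched motif, with 1 gene from a class. COL4A1 (chr17:91602477-91602676, 146.2 kb into the gene) stands for regions called at all 4 stages. ITGB3 (chr16:58471825-58472024, 41.7 kb) stands for E60 without E80, and its region was called at E50 too. COL5A2 (chr12:76212102-76212301, 287.2 kb) stands for E80 without E60. The plus strand is shown, and capitals mark E-box letters (CAGCTG) in COL4A1, SOX letters (ACAAAG or its reverse complement) in ITGB3, and E-box and NFI (TTGGC) letters in COL5A2.
COL4A1: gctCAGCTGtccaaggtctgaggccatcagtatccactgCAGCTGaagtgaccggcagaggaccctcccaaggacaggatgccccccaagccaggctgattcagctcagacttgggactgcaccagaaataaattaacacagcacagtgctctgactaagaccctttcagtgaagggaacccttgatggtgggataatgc
ITGB3: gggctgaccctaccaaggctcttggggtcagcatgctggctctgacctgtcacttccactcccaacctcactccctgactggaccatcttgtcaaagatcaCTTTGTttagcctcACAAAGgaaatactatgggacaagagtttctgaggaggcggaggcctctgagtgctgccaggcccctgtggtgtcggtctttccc
COL5A2: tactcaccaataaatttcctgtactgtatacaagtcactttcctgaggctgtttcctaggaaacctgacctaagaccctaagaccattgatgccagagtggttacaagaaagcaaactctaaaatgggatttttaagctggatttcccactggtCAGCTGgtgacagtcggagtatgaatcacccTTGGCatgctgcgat

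The merged table held 112696 regions, of which 72358 had a peak of at least 1 stage. The peak sets differed in size, with 18819, 59928, 58122 and 28982 regions called from E50 to E85, so that E60 and E80 are the only pair of like size. With 1 culture per stage there is no replicate check and no test between stages. Intervals are exact Clopper-Pearson 95% intervals over regions, which cover counting error alone and treat regions of 1 gene as independent. The label of cortical progenitor cultures was checked against marker genes. All 8 radial glia markers (PAX6, SOX2, HES1, VIM, FABP7, NES, SLC1A3 and GLI3) had a promoter called at all 4 stages, against 42.7% of all protein-coding genes. So did 4 of 5 astrocyte, 2 of 4 oligodendrocyte lineage and 2 of 7 neuron markers. From E50 to E85 promoters were called for 2, 5, 4 and 2 neuron markers, against 44.3%, 64.7%, 63.2% and 53.0% of all genes. None of 7 microglia markers had a promoter called at any stage, against 33.1% of all genes. The microglia loci did hold regions, 1, 6, 6 and 3 from E50 to E85.

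The loci of integrin, laminin and collagen genes held 372 regions, of which E50 had 63, E60 had 284, E80 had 313 and E85 had 133. These counts are 16.9% (interval 13.3 to 21.1), 76.3% (71.7 to 80.6), 84.1% (80.0 to 87.7) and 35.8% (30.9 to 40.9) of the regions. Over all 46876 regions in protein-coding loci the shares were 30.2%, 84.8%, 82.1% and 44.3%. The share at E50 was thus lower in these loci, and E80 rather than E60 had the most regions. No region was called at E50 alone, and 56 (15.1%, interval 11.6 to 19.1) were called at all 4 stages, against 27.9% of all regions in loci. Regions called at E60 and E80 alone numbered 118 (31.7%), close to the 28.3% of all loci. Regions called at E80 alone numbered 74 (19.9%, interval 16.0 to 24.3, against 11.5%), and at E60 alone 45 (12.1%, interval 9.0 to 15.8, against 14.9%).

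**Figure D1:**
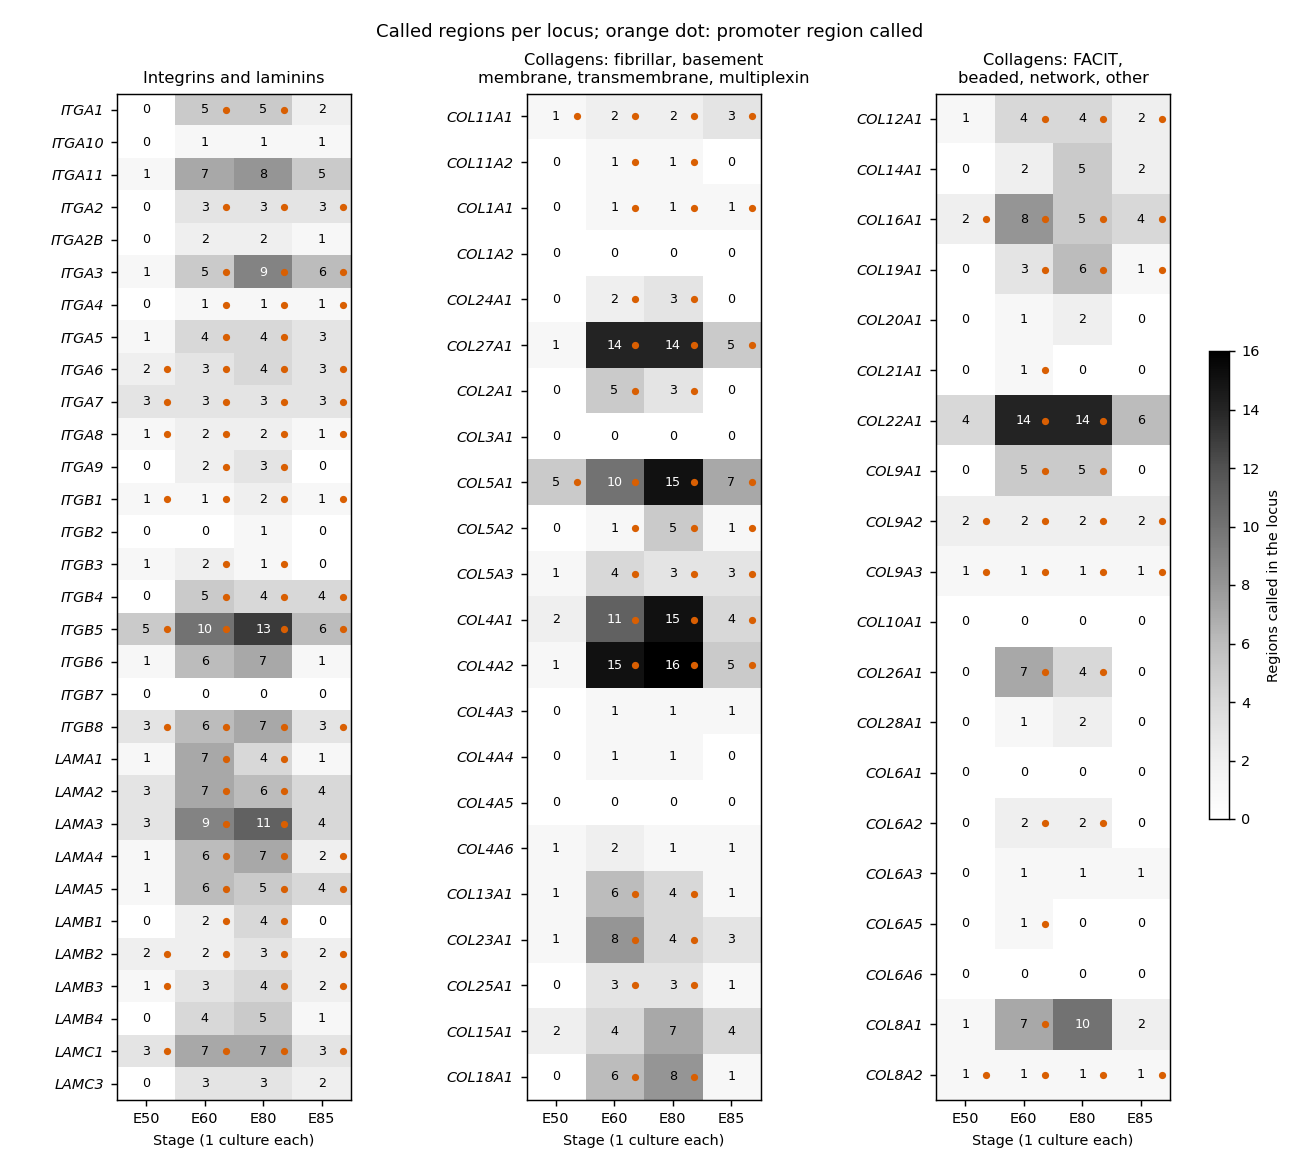
Number of regions called in the locus of each of 73 of the 74 genes (rows) at each stage (columns); grey depth and the printed digit give the number, and an orange dot marks a promoter region called at that stage. COL4A2 reached 16 regions at E80, and 7 loci held none at any stage.

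At least 1 region lay in 67 of the 74 loci. At E60 66 loci held a region, against 74.6% of all protein-coding loci. In loci of 20 to 100 kb 27 of 32 members did, against 7519 of 8958 such genes. Over 100 kb 37 of 39 did, against 3161 of 3306. No region lay in 7 loci (9.46%), against 22.7% of all protein-coding loci. Among genes with loci of like length the shares were closer. Of members at 20 to 100 kb 12.5% were empty, against 13.2%, and over 100 kb 5.13%, against 3.02%. The 7 empty loci were those of ITGB7, a leukocyte integrin chain, and of COL1A2, COL3A1, COL4A5, COL6A1, COL6A6 and COL10A1. Among these COL1A2 and COL3A1 are major collagens of fibroblasts, COL6A1 a chain of beaded microfibrils and COL10A1 a collagen of hypertrophic cartilage. The median locus of the 74 was 120 kb long and held 4 regions, against 25.9 kb and 1 region for all protein-coding genes. Per 100 kb the medians were both 4.1. In loci over 100 kb the 39 members had a median of 6 regions and all 3306 such genes a median of 5. Of the 373 pairs of a region and a locus, 260 were in introns, 64 at the gene's own promoter, 38 on exons and 11 upstream. A promoter region here lies within 1 kb of an annotated transcript start. Outside promoters, 83 of 297 regions in gene bodies (27.9%, interval 22.9 to 33.4) lay in the first 25% of the gene, against 22.7% for all genes.

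Over all locus lengths, promoters of the 3 families were called about as often as those of all genes at E60 and E80, and less often at E50 and E85. Against genes with loci of like length they were called less often at all 4 stages in both classes over 20 kb, which hold 71 of the 74 genes. At E50 a promoter was called for 15 of 74 genes (20.3%), against 44.3% of all protein-coding genes. At E60 it was 50 (67.6%, against 64.7%), at E80 48 (64.9%, against 63.2%) and at E85 29 (39.2%, against 53.0%). All 4 stages had the promoter called for 14 genes (18.9%), against 42.7% of all genes. E60 and E80 had it called and the other stages did not for 19 genes (25.7%), against 10.1%. No stage had it called for 23 genes (31.1%), against 33.1%. Among loci of like length the members lacked a call more often, 34.4% against 24.1% at 20 to 100 kb, and 28.2% against 12.9% over 100 kb. At these lengths E60 and E80 alone had it called for 21.9% against 10.3%, and for 30.8% against 16.5%. In loci of 20 to 100 kb a promoter was called for 8, 20 (62.5%), 21 (65.6%) and 14 (43.8%) of 32 members at E50, E60, E80 and E85, against 52.8%, 73.6%, 72.4% and 62.1% of such genes. In loci over 100 kb a promoter was called at E50 for 5 of 39 members against 53.1% of such genes, for 28 against 85.5% at E60, for 25 against 83.0% at E80, and for 13 against 66.4% at E85. The promoters of 5 of these 39 were called at all 4 stages, against 51.9%. The peak sets of E50 and E85 were also the smaller ones, and the part of set size in the members' counts was not tested.

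**Figure D2:**
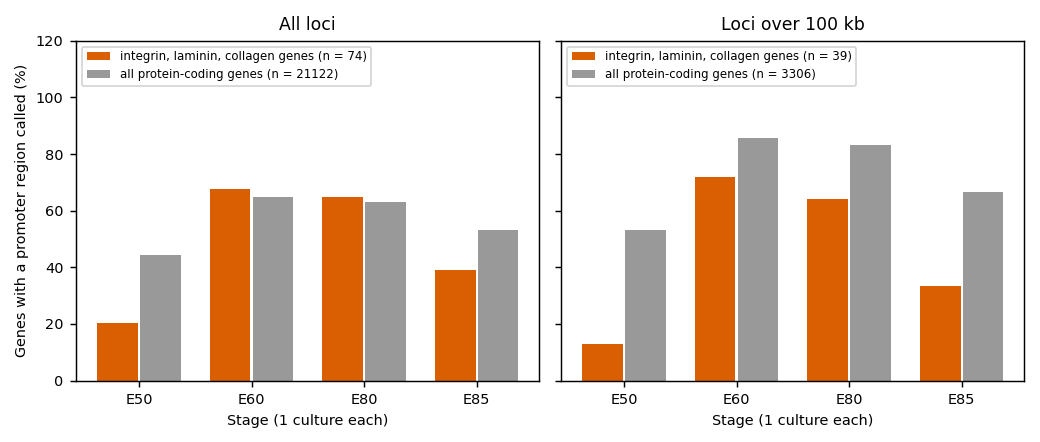
Percentage of genes with a promoter region called at each stage, for the 74 integrin, laminin and collagen genes (orange) and all 21122 protein-coding genes (grey); the right panel holds loci over 100 kb. The bars for all loci are near each other at E60 and E80, and the orange bars are lower at E50 (20.3% against 44.3%) and E85 (39.2% against 53.0%).

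Marker genes of cells that make much of this matrix were called most often at E60 and then E80, as were all protein-coding genes, of which 44.3%, 64.7%, 63.2% and 53.0% had a promoter called from E50 to E85. Of 7 endothelium markers, E50, E60, E80 and E85 had promoters called for 0, 4, 3 and 0, and their loci held 1, 17, 15 and 1 regions. PECAM1, TEK and CDH5 had no promoter call at any stage. Of 9 mesenchyme and mural cell markers, promoters were called for 2, 6, 5 and 3, and the loci held 5, 20, 19 and 9 regions. LUM and DCN, genes of fibroblast proteoglycans, held no region at any stage. The part of such cells in the counts of the 3 families was not tested. In bulk samples a region called in fewer cells and a region less open per cell cannot be told apart.

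Sequence at the outermost start of a gene varied with its promoter calls, which could rest on any annotated start. Within 500 bp of the outermost start, the ratio of observed to expected CpG had a median of 0.76 in the 14 genes called at all 4 stages, 0.64 in the 37 called at 1 to 3 stages, and 0.44 in the 23 called at none. Over all genes the medians were 0.78, 0.72 and 0.28. The ratio exceeded 0.6, a common limit for CpG islands, in 10, 21 and 7 of the member genes. These are 71.4%, 56.8% and 30.4% of the members, against 82.9%, 68.7% and 14.4% of all genes in the same groups. The sequence measured was not always the one called. In COL16A1 (ratio 0.32) the region at the outermost start was called at E60 alone. In COL5A2, LAMA2 and COL18A1 the promoter regions called lay 176.9, 163.8 and 34.9 kb into the gene.

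Among integrin alpha genes, which set ligand choice, promoters were called for 3 of 12 at E50, 9 at E60 and E80, and 6 at E85. At E60 and E80 this is 75.0% and at E85 50.0%, and the shares of all genes from E50 to E85 were 44.3%, 64.7%, 63.2% and 53.0%. ITGA6, a laminin receptor chain of radial glia, ITGA7, another laminin receptor chain, and ITGA8, which binds nephronectin, were the 3 called at all stages. ITGA6 had 2, 3, 4 and 3 regions at E50, E60, E80 and E85. ITGA7 had the same 3 regions at every stage, of which the upstream region also lies in the locus of BLOC1S1. The promoters of ITGA2, a collagen receptor chain, ITGA3, a laminin receptor chain, and ITGA4, a fibronectin and VCAM1 receptor chain, were called at every stage but E50. Those of ITGA1, a collagen receptor chain, ITGA5, the fibronectin receptor chain, and ITGA9 were called at E60 and E80 alone. ITGA2B, the platelet chain, ITGA10 and ITGA11, both collagen receptor chains, had no promoter call, yet ITGA11 had 1, 7, 8 and 5 regions. A region called at E85 alone was found in 5 of the 74 loci (6.76%), against 2.57% of all protein-coding loci, and ITGA6 was 1 of them. The members' loci were longer. Of their regions 1.34% (interval 0.4 to 3.1) were called at E85 alone, near the 1.18% in all protein-coding loci.

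ITGA3 reached the highest count at a single stage in this group, 9 regions at E80, while ITGA11 had more at E60 and as many in all. Its locus on chromosome 16, from 46701847 to 46737091 on the minus strand, had 1, 5, 9 and 6 regions at E50, E60, E80 and E85. All 5 regions of E60 were also called at E80, and 4 regions were called at E80 and not at E60. Of these 4, 3 were also called at E85, at 5.8, 24.2 and 25.4 kb from the start, and the other lay 4.0 kb upstream.

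Among integrin beta genes the promoters of ITGB1, the shared partner of most alpha chains, ITGB5 and ITGB8, which pair with alpha V, were called at all 4 stages. ITGB4, the partner of alpha 6 in epithelia, was called at every stage but E50, and ITGB3 at E60 and E80 alone. ITGB2 and ITGB7, chains of leukocytes, and ITGB6, an epithelial chain, had no promoter call, but ITGB6 had 1, 6, 7 and 1 distal regions. ITGB2 had a single region, called at E80 alone. ITGB1 had 1, 1, 2 and 1 regions. ITGB8 had 3, 6, 7 and 3, and ITGB5 had 5, 10, 13 and 6, the most of any integrin gene. The ITGB5 locus lies on chromosome 2, from 151424802 to 151545075 on the plus strand. It held 5 regions called at all 4 stages, 5 called at E80 alone and 2 called at E60 alone. The partner chain ITGAV, which the naming rule leaves out, had 2, 3, 3 and 2 regions and a promoter called at every stage. Of the leukocyte alpha genes, ITGAX had 1, 2, 3 and 1 regions and ITGAE had 1, 3, 3 and 1, each with a promoter called at every stage, and ITGAL, ITGAM and ITGAD held no region.

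All 12 laminin genes held a region. The surface coat of these cultures, LN521, is made of the chains encoded by LAMA5, LAMB2 and LAMC1, and these 3 genes had promoter calls at both E60 and E80. LAMB2 had 2, 2, 3 and 2 regions at E50, E60, E80 and E85, and LAMC1 had 3, 7, 7 and 3, with promoters called at all 4 stages. For LAMB2, 1 of the regions called at every stage lay at the 3' end, in the locus of USP19 too. It is a promoter region of another gene. LAMA5 had 1, 6, 5 and 4 regions, and its promoter was called at every stage but E50, as was that of LAMA4, an endothelial and mural chain. LAMA1, LAMA2, LAMA3 and LAMB1 had promoters called at E60 and E80 alone. The promoter region of LAMA2 lay 163.8 kb into the gene, at an internal annotated start. LAMB3 had its promoter called at E50, E80 and E85 but not at E60, in a region shared with the locus of C1H1orf74. LAMC3 and LAMB4 had no promoter call, and LAMC3 held a region called at E85 alone. The largest count was that of LAMA3, an epithelial chain, with 3, 9, 11 and 4 regions. LAMA1, an early basement membrane chain on chromosome 18 from 68041200 to 68206803, had 1, 7, 4 and 1 regions. It was the only laminin locus with an excess of 3 or more E60-specific regions, 3 against 0, of which 1 lay at its promoter.

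Basement membrane collagens were split between the COL4A1 and COL4A2 pair and the other 4 genes. COL4A1 had 2, 11, 15 and 4 regions at E50, E60, E80 and E85, and COL4A2 had 1, 15, 16 and 5. COL4A3 had 0, 1, 1 and 1, COL4A4 had 0, 1, 1 and 0, COL4A6 had 1, 2, 1 and 1, and COL4A5 had none. These 4 genes encode chains of specialised basement membranes such as that of the kidney, and none had a promoter call at any stage. The region over the shared start of COL4A1 and COL4A2, chr17:91747976-91750695, was called at E60, E80 and E85 and not at E50. Together the pair held 34 regions, of which 14 were called at E60 and E80 alone, 8 at E80 alone, 4 at E60 alone and 3 at all 4 stages. At E50, where the shared promoter was not called, 3 intronic regions were, at 121.9 and 146.2 kb into COL4A1 and at 113.4 kb into COL4A2. All 11 regions of COL4A1 called at E60 were also called at E80, which had 4 more. In COL4A2 the stages exchanged regions, with 4 called at E60 and not E80, and 5 the other way.

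**Figure D3:**
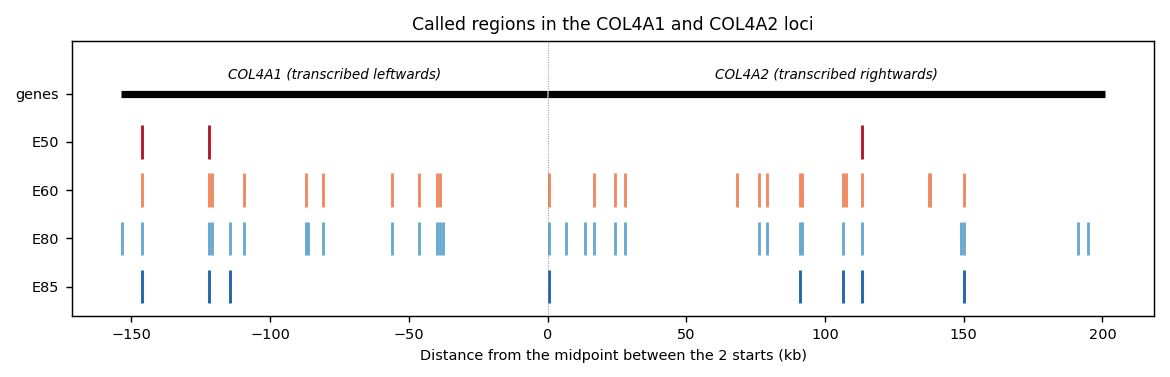
Regions called at each stage (rows) in the COL4A1 and COL4A2 loci, by distance in kb from the midpoint between the 2 starts; each tick is 1 region, and black bars are the gene bodies. The region at 0 is called at E60, E80 and E85, and E50 has 3 ticks, each over 100 kb from it.

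The fibrillar collagens differed in their number of regions and also in locus length. Per 100 kb of locus COL2A1 had the most regions of the class, 13.7, against 10.3 in COL27A1, 7.0 in COL5A1 and 4.4 in COL1A1. COL27A1 had 1, 14, 14 and 5 regions, and COL5A1 had 5, 10, 15 and 7. COL1A1, the main chain of type I collagen, had the same single region, at its promoter, at E60, E80 and E85, while its partner COL1A2 and its companion COL3A1 had none. COL5A2, the partner of COL5A1, had 0, 1, 5 and 1. COL2A1, the cartilage collagen, had 0, 5, 3 and 0. COL5A1, on chromosome 15 from 3391471 to 3600114 on the minus strand, held 5 regions called at all 4 stages and 5 called at E80 and not at E60, with none the other way. In COL5A2 these numbers were 0, 4 and 0. COL5A1 and COL11A1 were the fibrillar genes with a promoter called at all 4 stages. Those of COL1A1, COL5A2, COL5A3 and COL27A1 were called at all but E50, and those of COL2A1, COL11A2 and COL24A1 at E60 and E80 alone. The promoter region of COL5A2 lay 176.9 kb into the gene, at an internal annotated start. COL11A1 also held a region called at E85 alone.

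FACIT collagens sit on the surface of fibrils. COL22A1 had the most regions in this class, with 4, 14, 14 and 6, and a promoter called at E60 and E80 alone. COL9A2 and COL9A3 had the same 2 and 1 regions at every stage, while COL9A1, the third chain of type IX collagen, had 0, 5, 5 and 0, all called at E60 and E80 alone. COL16A1 had 2, 8, 5 and 4 regions, with 4 called at E60 and not E80 against 1. Its promoter was called at all 4 stages, but through different regions over several annotated starts: the region at the outermost start was called at E60 alone. COL19A1 had 0, 3, 6 and 1 and COL14A1 had 0, 2, 5 and 2 regions, each with 3 called at E80 and not E60 and none the other way. COL12A1 and COL19A1 had promoters called at all stages but E50, and COL21A1 at E60 alone. COL14A1 and COL20A1 had none, and COL14A1 and COL22A1 each held 1 region called at E85 alone.

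The 3 transmembrane collagens found in the annotation, COL13A1, COL23A1 and COL25A1, all had promoters called at E60 and E80 alone. They had more regions at E60 than at E80 or as many: COL13A1 had 1, 6, 4 and 1, COL23A1 had 1, 8, 4 and 3, and COL25A1, which codes for a collagen of neurons, had 0, 3, 3 and 1. In COL23A1 (chromosome 6, 175567609 to 175929024) 4 regions were specific to E60 and none to E80. In the class as a whole 7 regions were called at E60 and not E80, and 1 at E80 and not E60. The multiplexins, basement membrane collagens that carry heparan or chondroitin sulphate, went the other way: COL15A1 had 2, 4, 7 and 4 regions and COL18A1 had 0, 6, 8 and 1, with 5 called at E80 and not E60 and none at E60 and not E80. COL18A1 had a promoter called at E60 and E80 alone, at an internal annotated start 34.9 kb into the gene, and COL15A1 had none. These classes hold 3 and 2 genes, so each rests on few loci.

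In the remaining collagens COL8A1, a short-chain collagen of vessels and the eye, had the most regions, 1, 7, 10 and 2. Of them 5 were called at E80 and not at E60, and 2 the other way. Both E60-specific regions were at its promoter, which no other stage had called. COL26A1 had 0, 7, 4 and 0 regions, with 4 called at E60 and not E80 against 1. COL8A2 had a single region, at its promoter, at all 4 stages. Among type VI genes COL6A2 had a promoter called at E60 and E80 and COL6A5 at E60 alone, COL6A3 had distal regions alone, and COL6A1 and COL6A6 were empty. COL28A1 had 0, 1, 2 and 0 regions and no promoter call.

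The comparison of E60 with E80 asked which of 2 peak sets of like size held the regions that differed. In the loci of the 3 families 231 regions were called at both stages, 53 at E60 and not E80, and 82 at E80 and not E60. The E80 share of discordant regions was 60.7% (interval 52.0 to 69.0). Over all protein-coding loci it was 45.3% (interval 44.4 to 46.1), from 7407 and 6130 regions. More E80-specific than E60-specific regions were found at 28 of the 74 loci, against 13.3% of all protein-coding loci, and the reverse at 14, against 15.6%. In loci over 100 kb, where more regions can differ, these counts were 17 and 8 of 39, against 28.2% and 35.2%. The share was 70.0% for integrins (21 of 30, interval 50.6 to 85.3), 60.0% for laminins (12 of 20, interval 36.1 to 80.9) and 57.6% for collagens (49 of 85, interval 46.4 to 68.3). These intervals overlap, and the difference between families was not tested.

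An excess of 3 or more E80-specific regions was found at 9 loci (12.2%, against 1.14% of all protein-coding loci): ITGA3, ITGB5, COL4A1, COL5A1, COL5A2, COL8A1, COL14A1, COL15A1 and COL19A1. An excess of 3 or more E60-specific regions was found at 4 (5.41%, against 2.00%): LAMA1, COL16A1, COL23A1 and COL26A1. In loci over 100 kb the counts were 8 and 3 of 39, against 5.66% and 9.98%. No locus gave more than 5 of the 82 E80-specific regions, and 4 loci gave 5 each.

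**Figure D4:**
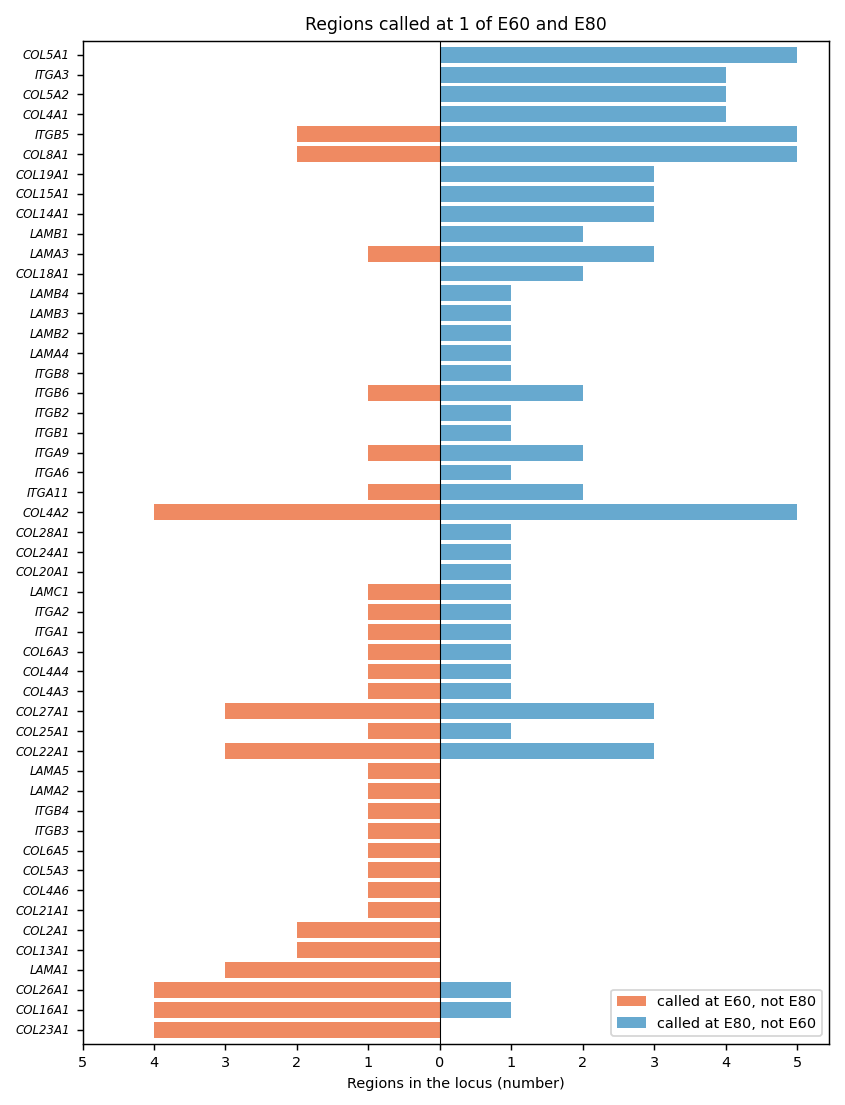
Number of regions called at E80 and not E60 (blue, to the right) and at E60 and not E80 (orange, to the left) in the loci shown, each of which held any, ordered by the difference. COL5A1 is at the top with 5 against 0, and COL23A1 at the bottom with 0 against 4.

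Promoters and distal regions were also counted apart, and the difference between them was not tested. Among distal regions 80 were called at E80 and not E60 and 45 the other way, an E80 share of 64.0% (interval 54.9 to 72.4), against 47.3% in all loci. Among promoter regions 2 were called at E80 and not E60 and 8 the other way, a share of 20.0% (interval 2.5 to 55.6), against 31.6%. Of the 82 E80-specific regions 8 (9.76%) were also called at E50 or E85, against 11.7% in all loci. Of the 53 E60-specific regions 8 (15.1%) were, against 5.67%. Regions called at E80 alone and at E60 alone were both narrow, with median widths of 277 and 291 bp, against 752 bp for regions called at all 4 stages. Widths by call pattern were not measured over all loci.

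Transcription factor consensus letters were counted within 150 bp of the centre of each region, on both strands, so for narrow regions the window runs past the called bases. AP-1 (TGACTCA) was in 34 of the 80 distal E80-specific regions (42.5%, interval 31.5 to 54.1) and in 5 of the 45 E60-specific ones (11.1%, interval 3.7 to 24.1). Over all distal regions the shares were 40.8% and 11.2%, so the members' regions had about the same shares as the rest of the genome. TEAD (ACATTCC) was in 13 E80-specific regions (16.2%) and in 0 E60-specific ones, against 10.4% and 4.25% over all distal regions. SOX (ACAAAG) was in 14 (17.5%, interval 9.9 to 27.6) and 19 (42.2%, interval 27.7 to 57.8), against 26.6% and 31.3%. In E80-specific and E60-specific regions in turn, the E-box CAGCTG was in 16.2% and 26.7%, the NFI core TTGGC in 42.5% and 62.2%, the homeobox letters TAATTA in 7.5% and 11.1%, and the CTCF letters CCACNAGG in 7.5% and 4.44%. For all 7 consensus sequences the value over all distal regions lay inside the members' interval in both groups. A match of letters is a description and does not show binding.

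**Figure D5:**
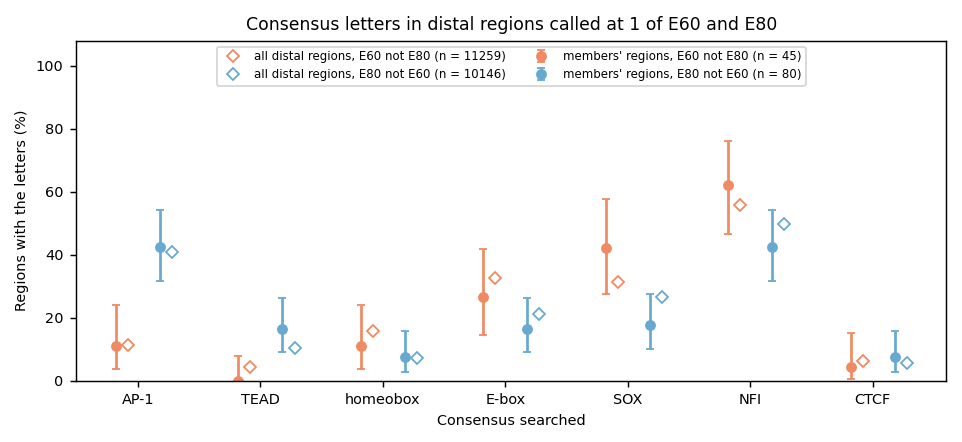
Percentage of distal regions whose central window holds each consensus, for regions called at E60 and not E80 (orange) and at E80 and not E60 (blue). Filled points are regions in the 74 loci with 95% intervals, and open diamonds are all distal regions; AP-1 is at 11.1% and 42.5% in the filled points and at 11.2% and 40.8% in the diamonds.

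Other genes of matrix adhesion gave a mixed picture of the same comparison. Of 16 genes of other matrix ligands, 6 had more E60-specific regions and 4 more E80-specific ones, with 21 and 15 regions in all. Over all protein-coding genes 15.6% had more E60-specific and 13.3% more E80-specific regions. Promoters in this list were called for 7, 16, 14 and 7 genes at E50, E60, E80 and E85, which is 43.8%, 100.0%, 87.5% and 43.8%, against 44.3%, 64.7%, 63.2% and 53.0% of all genes. TNR, the tenascin of neurons and oligodendrocytes, had 8 E60-specific and 5 E80-specific regions, and SPP1, osteopontin, an integrin ligand, had 0 and 3. Of 7 chondroitin sulphate proteoglycan genes, 5 had more E60-specific regions and none more E80-specific ones, with 13 and 0 regions. PTPRZ1, a receptor phosphatase proteoglycan of radial glia, gave 7 of the 13, and VCAN, versican, gave 3. Of 16 genes of the integrin adhesion complex, 7 had more E60-specific and 4 more E80-specific regions, with 16 and 14 in all. In it VCL, vinculin, had 0 and 4, PXN, paxillin, had 0 and 3, and LIMS1, which binds integrin-linked kinase, had 5 and 0. Of 15 genes of collagen synthesis and crosslinking, 2 had more E60-specific and 5 more E80-specific regions, with 6 and 10 in all. ADAMTS2, which trims procollagen, had 3 E60-specific and 0 E80-specific regions, LOXL2, which crosslinks collagen, had 1 and 3, and PLOD2, a collagen lysyl hydroxylase, had 0 and 2. Of 5 other laminin receptor genes, DAG1, dystroglycan, and BCAM each had 0 E60-specific and 1 E80-specific region, and SGCE, a sarcoglycan, had 1 and 0. Promoters of the adhesion complex were called for 10, 14, 13 and 11 of 16 genes, which is 62.5%, 87.5%, 81.2% and 68.8% from E50 to E85, each above the share of all genes. The median locus was 61.4 kb long in this list and 97.8 kb in that of other matrix ligands, against 25.9 kb for all genes. Of all genes with loci of 20 to 100 kb, 52.8%, 73.6%, 72.4% and 62.1% had a promoter called from E50 to E85.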

How the data were processed

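Reads were processed by the authors with cutadapt 4.4, Bowtie2 2.5.1 and SAMtools 1.15 on rheMac10, per the submitters' processing notes. What called the peaks, at what threshold and on which pools, is not given in the sources used here. In the deposited table, without header, each region lists its peaks by name, with stage codes. These codes were the only measurement used, another kind of value than a count of reads. Another 8 columns of values carry no sample names and were not used, so depth per library is unknown here. Lifted peaks, whose set codes have no meaning in the labels, were not counted. Starts of 0 occur in 8 regions, so starts were read as 0-based and 1 was added. Genes came from the NCBI annotation of Mmul_10, the assembly that rheMac10 names.

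Members and lists were chosen with earlier results of these data known. COL7A1 and COL17A1 were not found under those names. The values of 1 member are not reported here; it is in the totals. Named genes were, in each class, the locus with the most regions, those with a difference of 3 or more between E60 and E80, those with promoters called at some stages, those with a region at E50 or E85 alone, and empty loci. Other members are named to complete their class. After the regions were seen, the planned display of the widest region of each pattern was limited to introns and 200 bases, and the short motif contexts, the stretch between COL4A1 and COL4A2 and the CpG measure were added. Overlap counts were tested on 2000 simulated loci, with 0 mismatches. Intervals came from SciPy 1.17.1, sequences were read with pysam 0.24.0 and plots drawn with matplotlib 3.10.9.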

Additional observations from a re-analysis of the deposited data

Results flagged for a closer look

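The members' loci also held 235 regions made of lifted peaks alone, with set codes absent from the labels, which no comparison above used. They were 38.7% of the 607 regions in these loci, against 33.4% in all protein-coding loci. They were marked because they are a signal outside the stage peaks.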

How the results depend on the processing

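The E80 share of discordant regions (60.7%) stayed within its interval under 8 of 10 alternatives and left it under the other two, where it was 20.0% with promoter regions alone and 50.0% with only regions also called at E50 or E85. With gene bodies and 20 kb on both sides, 101 regions were called at E50 in place of 63. The other 15 alternatives for the counts of regions per stage, and all 8 for the counts of promoters called per stage, stayed within 1.5 times. Motif shares over all regions, promoters included, and not the distal shares given above, stayed within their intervals in 33 of 42 alternatives. The 9 that left them were all for regions called at both E60 and E80, with the whole region or 100 bp on each side in place of the window, and the cause was not tested. No paired analysis was possible because the stage peak sets carry no replicate number. Leaving out a library was not run for the same reason. Peak calls depend on depth, which was not used here, and a region not called may still have been open.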
